A study of Mus musculus with 2 samples.

Results

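The report is about 10 imprinted growth genes of the mouse, and 9 of them were measured: the long noncoding RNAs H19, Meg3 and Mirg, the growth factor Igf2, the Notch-family ligand Dlk1, the zinc finger genes Peg3 and Plagl1, the cell cycle inhibitor Cdkn1c and the adaptor Grb10. Rian was not analysed here. The genes were found by their symbols among the 27998 genes counted, and a list of other imprinted genes, of which 51 of 53 were measured, served beside them. They were chosen by their levels in the same cell classes and libraries, with earlier results of these data known, so that all levels below are a description and carry no test.

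The cells came from Gli1-CreERT2; Ai9 mice of a mixed background at 1 month of age, in which a tamoxifen-activated Cre under Gli1 control switches on the red protein tdTomato in cells that respond to Hedgehog (Hh) signals, and in their later progeny. All mice received 3 daily doses of tamoxifen, followed by 3 daily injections of vehicle in the control group or of teriparatide, the active fragment of parathyroid hormone, at 400 ng/g in the treated group. Cells of the metaphysis of the femur, without the epiphysis, were sorted as tdTomato+ and negative for CD31, CD45 and Ter119, markers of endothelial cells, leukocytes and red cells. Each group was 1 library of single cells in which the 3' ends of transcripts were counted by unique molecular identifiers (UMIs). The methods name mice of both sexes in each group, and the cells carry no label of their mouse. Hence there was no replicate library, no p-value can be had, and the treatment cannot be told apart from the library. Levels are summed UMIs per 1000000 UMIs of the class (CPM) with exact 95% Poisson intervals, differences are log2 ratios of CPM with exact conditional binomial intervals, and all intervals cover counting error only, not the spread between cells or mice.

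After the filter of 200 to 6000 genes and at most 10% mitochondrial UMIs, 549 of 1286 barcodes of the vehicle library and 1217 of 2142 of the teriparatide library remained, with a median of 10875 and 14556 UMIs. Cells were assigned one at a time by known markers. The chondrocyte-like osteoprogenitor (COP)-like cells, gated by Sox9, Sox5, Sox6, Col2a1 and Acan, numbered 64 of vehicle and 254 of teriparatide mice, at a median of 29102 and 30713 UMIs. Further classes were hypertrophic-like cells (10 and 33), preosteoblast (preOB)-like cells (29 and 44), osteoblast (OB)-like cells (111 and 117), osteocyte-like cells (18 and 38) and marrow adipogenic lineage progenitor (MALP)-like cells (184 and 95). A further 2 and 7 cells were mural-like and are described apart from these 6 classes. In spite of the sort, 105 and 576 cells belonged to blood lineages, and they served to show the background of free RNA. tdTomato was not among the genes counted. The markers of COP-like cells are shared with growth plate chondrocytes, and whether such cells were among them was not tested. By Xist and Y-linked transcripts, 52.2% of the mesenchymal cells with a call were male in the vehicle library and 90.6% in the teriparatide library, whereas in COP-like cells the shares were 85.2% and 90.1%. Between the libraries, 2 barcodes were shared.

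Imprinted genes are transcribed mainly from the allele of 1 parent, and many of them set the pace of fetal and early postnatal growth. As a rule, genes expressed from the paternal allele, such as Igf2, Peg3, Plagl1 and Dlk1, favor growth, and genes expressed from the maternal allele, such as H19, Cdkn1c and Grb10 in most tissues, restrain it. Many belong to a network that is active in growing organs and silenced after birth. The counts do not tell the alleles apart, and they do not tell apart the several promoters of Igf2 or Grb10.

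The members lie in few imprinted domains (GENCODE M21 on GRCm38). On chromosome 7, H19 (ENSMUSG00000000031, chr7:142575529-142578143, minus strand) lies next to Igf2 (ENSMUSG00000048583, chr7:142650766-142666816, minus strand), Cdkn1c (ENSMUSG00000037664, chr7:143458339-143461050, minus strand) lies in the neighboring Kcnq1 domain, and Peg3 (ENSMUSG00000002265, chr7:6703892-6730431, minus strand) lies apart from them. On chromosome 12, the Dlk1-Dio3 domain holds Dlk1 (ENSMUSG00000040856, chr12:109452823-109463336), Meg3 (ENSMUSG00000021268, chr12:109541001-109571726), Rian and Mirg (ENSMUSG00000097391, chr12:109729764-109749460), all on the plus strand. Plagl1 (ENSMUSG00000019817, chr10:13060504-13131694, plus strand) and Grb10 (ENSMUSG00000020176, chr11:11930508-12038683, minus strand) lie alone. H19 is also the host of miR-675, a microRNA whose hairpin (chr7:142577064-142577147, minus strand) lies inside an exon in 3 of the 7 annotated H19 transcripts. The counts are of the host RNA and hold no mature microRNA. Its mature forms are shown because H19 was among the members with the steepest differences between cells. They follow from RefSeq with the seed, bases 2 to 8, in capitals.
mmu-miR-675-5p: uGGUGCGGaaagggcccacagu
mmu-miR-675-3p: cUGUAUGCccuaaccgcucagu
Mirg spans the sequences of 26 annotated mature microRNAs.

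Because the receptor for teriparatide acts largely through cyclic AMP, the RefSeq promoter windows (GRCm38.p6, 250 bases before to 50 bases after a start) of the members were searched on both strands for the palindrome TGACGTCA, the full cyclic AMP response element. A window was held for 8 of the 10 members, with 13 windows in all. H19 and Cdkn1c had no window and were not searched. The palindrome was found in 1.79% of all 32851 windows, and among the members in windows of Meg3 and Peg3. The Meg3 window at chr12:109545148-109545447 did not hold it. The shorter TGACG, which the palindrome contains, was in 20.8% of all windows, and among the members in windows of Igf2, Meg3, Dlk1, Peg3 and Grb10. The palindrome GGGGCCCC, a core bound by Plagl1, was in 1.08% of all windows and among the members only in that of Peg3. The Meg3 window holding TGACGTCA (chr12:109540746-109541045, plus strand) and the Peg3 window (chr7:6730370-6730669, minus strand) are shown 5' to 3' with these motifs in capitals.
Meg3: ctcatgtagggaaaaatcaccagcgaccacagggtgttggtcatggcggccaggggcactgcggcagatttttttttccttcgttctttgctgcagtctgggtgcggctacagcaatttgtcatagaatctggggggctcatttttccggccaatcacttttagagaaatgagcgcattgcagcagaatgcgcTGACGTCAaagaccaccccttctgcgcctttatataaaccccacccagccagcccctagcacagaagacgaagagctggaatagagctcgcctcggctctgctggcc
Peg3: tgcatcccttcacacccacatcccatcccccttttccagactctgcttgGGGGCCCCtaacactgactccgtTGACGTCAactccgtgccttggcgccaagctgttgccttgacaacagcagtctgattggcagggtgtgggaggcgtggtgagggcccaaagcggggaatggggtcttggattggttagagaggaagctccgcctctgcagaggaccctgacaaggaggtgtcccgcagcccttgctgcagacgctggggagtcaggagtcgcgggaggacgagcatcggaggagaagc
The element started 57 bases before the Meg3 start and 178 bases before the Peg3 start, and GGGGCCCC started 201 bases before the Peg3 start. A match is a description of the letters, and binding was not measured.

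Of the 6 mesenchymal classes, COP-like cells held the highest level of 6 of the 9 members when both libraries were summed. For Mirg and Plagl1 the interval overlapped that of the next class. In the vehicle library Peg3 was highest in hypertrophic-like cells, with overlapping intervals. In the teriparatide library Plagl1 was highest in MALP-like cells, again with overlapping intervals. The share of all genes highest in COP-like cells was not computed, so the count is no result about the members. Of the members with UMIs in both, H19 and Meg3 had the largest steps from COP-like to MALP-like cells. H19 measured 532 CPM (499 to 567) in COP-like cells of the vehicle library and 322 (310 to 335) of the teriparatide library, against 7.31 and 2.37 in MALP-like cells and 0 and 1.19 in OB-like cells. Meg3, a noncoding RNA of the maternal allele with growth-restraining activity, measured 641 (605 to 679) and 488 (472 to 504) in COP-like cells, 3.41 and 3.15 in MALP-like cells, and 0.883 and 0.397 in OB-like cells. Mirg, which lies downstream of Meg3 on the same strand, was rare, with 16 and 35 UMIs in COP-like cells (8.93 and 4.59 CPM), and of its 54 UMIs in all kept cells 51 were in COP-like cells. No UMI of Mirg was seen in MALP-like cells, which allows up to 0.903 CPM, or in OB-like cells.

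In the hypertrophic-like and preOB-like classes, the H19 and Meg3 counts came from few cells. In preOB-like cells of the vehicle library, 38 UMIs of H19 (88.2 CPM) lay in 4 of 29 cells, with 21 in 1 cell, and the teriparatide library had 1 UMI. All 18 UMIs of Meg3 in hypertrophic-like cells of the vehicle library (170 CPM) lay in 1 of 10 cells, against 2.39 CPM in the teriparatide library. In preOB-like cells, 1 cell held all 9 Meg3 UMIs of the vehicle library (20.9 CPM), and 23 of the 34 of the teriparatide library (44.0 CPM) lay in 1 cell. Without the richest cell, the preOB-like levels were 39.97 CPM of H19 in the vehicle library and 14.6 of Meg3 in the teriparatide library, still above those of MALP-like cells, whereas no Meg3 was left in hypertrophic-like cells. In contrast, 39 of 64 and 134 of 254 COP-like cells held a UMI of H19, and 38 and 150 held a UMI of Meg3. Meg3 was also seen in mural-like cells, in 6 of 9 cells. Its level there was 1008 CPM (632 to 1526) on 22 UMIs of 2 vehicle cells, 19 of them in 1 cell, and 323 (213 to 470) on 27 UMIs of 7 teriparatide cells. H19 had 0 UMIs in these cells.

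The protein-coding members were broader. Peg3, a paternally expressed zinc finger gene, was detected in nearly every COP-like cell (63 of 64 and 250 of 254). Its level was 386 CPM (357 to 415) and 522 (506 to 538) in COP-like cells and 397 (286 to 537) and 401 (359 to 446) in hypertrophic-like cells, 78.9 and 54.4 in preOB-like cells, 52.1 and 46.9 in OB-like cells and 12.7 and 28.4 in MALP-like cells. The COP-like and hypertrophic-like intervals overlapped in the vehicle library, where 1 of 10 hypertrophic-like cells held 33 of 42 UMIs, and not in the teriparatide library. Peg3 levels thus stepped down from chondrocyte-like to osteoblast-like to MALP-like cells in both libraries, and preOB-like and OB-like cells did not differ beyond their intervals. In the teriparatide library the MALP-like interval (19.9 to 39.3) narrowly overlapped those of preOB-like (39.2 to 73.5) and OB-like cells (38.8 to 56.1). Grb10, which binds the insulin and IGF1 receptors and dampens their signals, had the shallowest steps, from 299 (274 to 325) and 236 (226 to 248) in COP-like cells through 183 and 174 in preOB-like and 170 and 151 in hypertrophic-like cells to 86.2 and 79.6 in MALP-like and 66.7 and 62.0 in OB-like cells.

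Plagl1 and Cdkn1c, in contrast to Peg3, were higher in MALP-like than in OB-like cells, with Cdkn1c in MALP-like cells below its COP-like level. Plagl1, a zinc finger factor that regulates other imprinted genes, measured 117 (101 to 134) and 182 (172 to 192) CPM in COP-like cells and 104 (90.3 to 119) and 216 (191 to 243) in MALP-like cells. Intervals of these neighbors overlapped in the vehicle library and also, narrowly, in the teriparatide library, with the order turned. Plagl1 was also at 90.5 (64.3 to 124) and 95.8 (75.3 to 120) in preOB-like cells. In hypertrophic-like cells it was at 37.8 and 161, on 4 and 135 UMIs. OB-like cells were lower, at 20.3 and 17.9. Cdkn1c, which encodes the cyclin-dependent kinase inhibitor p57, measured 331 (305 to 359) and 432 (418 to 447) in COP-like cells, 851 (684 to 1046) and 425 (382 to 471) in hypertrophic-like cells, 170 and 168 in MALP-like cells, and 18.1 and 9.14 in OB-like cells. Of the 90 Cdkn1c UMIs in hypertrophic-like cells of the vehicle library, 57 lay in 1 of 10 cells, and in the teriparatide library COP-like and hypertrophic-like cells did not differ beyond their intervals.

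Igf2, the fetal growth factor next to H19, went the other way. It measured 63.3 (52.9 to 75.2) and 60.7 (47.9 to 75.9) CPM in MALP-like cells, and 20.6 (14.5 to 28.5) and 12.98 (10.5 to 15.8) in COP-like cells. PreOB-like cells of the teriparatide library reached 63.5, but 25 of their 49 UMIs lay in 1 cell. Dlk1, the founder of the chromosome 12 domain, was near absent, with 7 UMIs in all kept cells, 2 of them in COP-like cells and 1 in MALP-like cells. The other 4 lay in 2 of the 7 mural-like cells of the teriparatide library, at 47.9 CPM (13.04 to 123). Osteocyte-like cells, at a median of 6072 and 6891 UMIs, held few UMIs of any member, the most being 12 and 18 of Grb10 (102 and 56.8 CPM).

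In the blood lineages the members were at background. Among 207 erythroid-like cells of both libraries, H19, Igf2, Mirg and Dlk1 had 0 UMIs, and Meg3, Peg3, Plagl1, Cdkn1c and Grb10 had 1 to 4 UMIs each. The highest level of a member with over 4 UMIs in erythroid-like, neutrophil-like or monocyte-like cells was 3.89 CPM, for Cdkn1c in neutrophil-like cells of the teriparatide library, where 8 of 15 UMIs were in 1 cell. After every cell was thinned to 3889 UMIs, Peg3 was seen in 82.5% and 70.8% of COP-like cells and in 0.637% of erythroid-like cells of both libraries, whose median depth before thinning was 10248 UMIs.

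**Figure D1:**
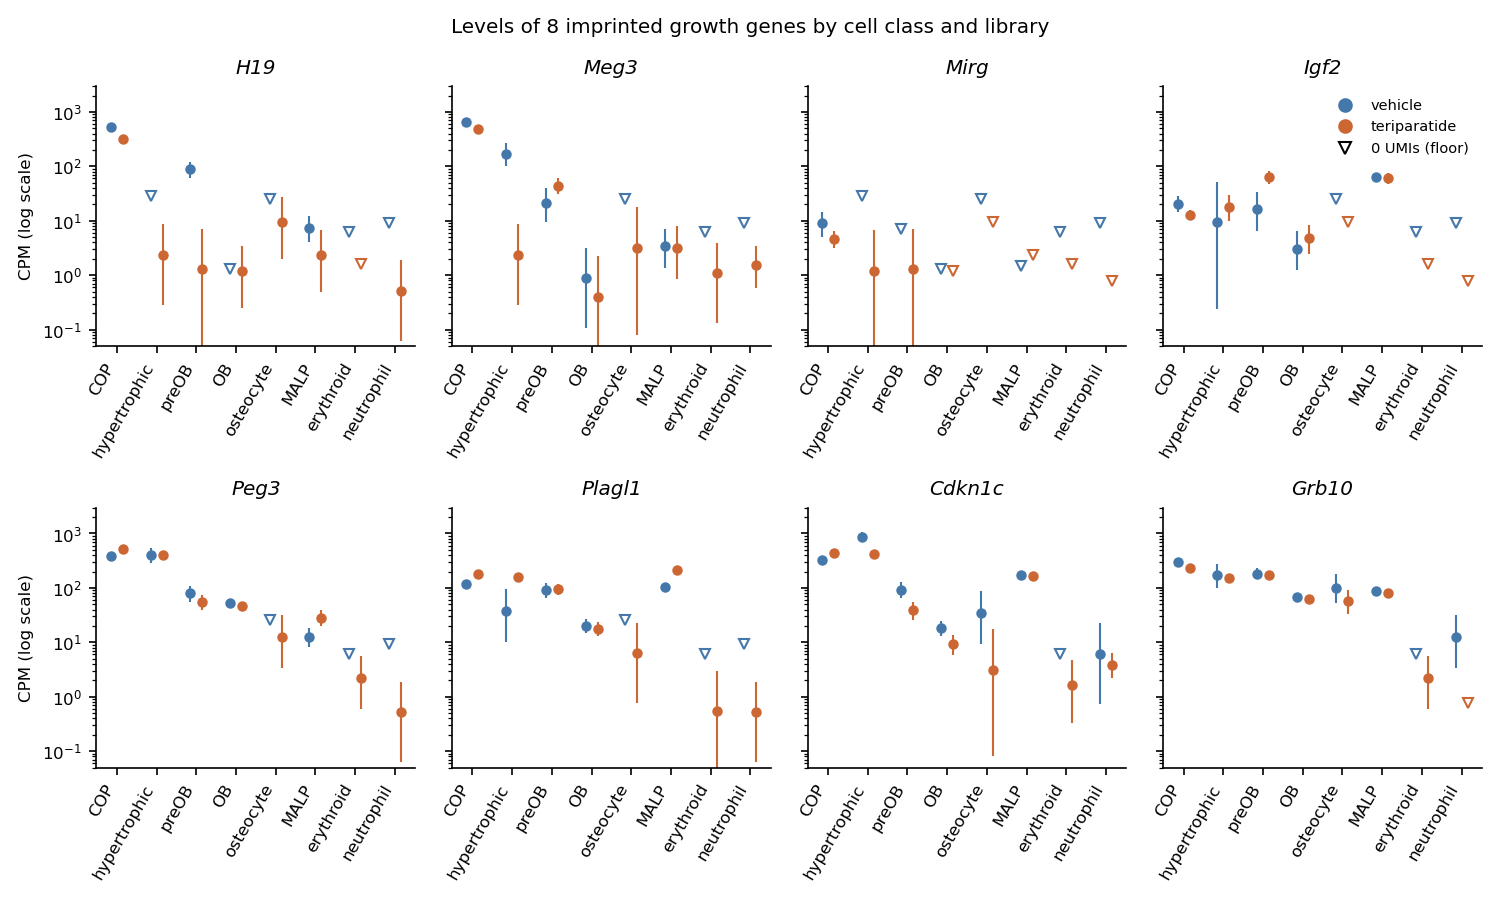
Levels of 8 members (CPM, log axis) in the 6 mesenchymal classes and in erythroid-like and neutrophil-like cells, for the vehicle and teriparatide libraries. Points are summed UMIs scaled to CPM, bars are exact 95% Poisson intervals, and open triangles mark 0 UMIs, drawn at the level of 3 counts. H19 and Meg3 stand over 300 CPM in COP-like cells of both libraries. In the vehicle library Igf2 is highest in MALP-like cells, at 63.3 CPM, and in the teriparatide library in preOB-like cells, at 63.5. No member exceeds 12.4 CPM in the blood classes.

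Set against MALP-like cells over both libraries, 8 of the 9 members had at least 50 UMIs, and 6 were at least 2-fold higher in COP-like cells (H19, Meg3, Mirg, Peg3, Cdkn1c and Grb10), where 11.7% of all 10455 genes with as many UMIs were. Igf2 was at least 2-fold lower, as were 27.5% of all genes. The log2 ratios were 6.06 (interval from 5.40) for H19, 7.29 (from 6.45) for Meg3, 4.73 (from 4.37) for Peg3, 1.57 for Grb10, 1.29 for Cdkn1c, 0.21 for Plagl1 and -2.11 for Igf2. The median log2 ratio of the members was 2.08 and that of all genes -0.48. The members were chosen in view of such levels, so the count is no evidence about them. Between hypertrophic-like and COP-like cells, 3 of 8 members (H19, Meg3 and Mirg) were at least 2-fold lower in hypertrophic-like cells, where 22.6% of all 9351 genes were. The median was -0.50 for the members and -0.36 for all genes.

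H19 and Igf2, whose starts lie 88.7 kb apart, were thus high in different classes. In resting-like COP cells, defined below, H19 measured 715 CPM and Igf2 25.1, and in MALP-like cells H19 measured 5.42 and Igf2 62.3. Among the neighbors, named by position alone, Ins2 and Th, on the far side of Igf2, had 0 UMIs in all kept cells. Lsp1, Tnni2 and Syt8, on the far side of H19, measured 263, 195 and 51.7 CPM in resting-like COP cells and 1.81, 0.301 and 0.602 in MALP-like cells, in the direction of H19. Tnnt3, between them and H19, went the same way, at 26.0 and 0.602. In contrast, Mrpl23, also between them and H19, measured 82.3 and 110, Ctsd, beyond them, 305 and 333, and Cd81, on the far side of Igf2, 316 and 730. Syt8 measured 157 CPM over all COP-like cells, above its resting-like level, whereas H19 measured 362, below its own. On chromosome 12, resting-like COP cells had 1066 CPM of Meg3, 7.81 of B830012L14Rik, a noncoding gene between Meg3 and Mirg, and 10.7 of Mirg, while MALP-like cells had 3.31 of Meg3 and 0 UMIs of the other two. The protein-coding genes Rtl1, Dlk1 and Dio3 of the domain were sparse: Rtl1 had 0 UMIs in all kept cells, and in resting-like COP cells Dlk1 and Dio3 had 0. Dio3 had 33 UMIs in all kept cells, with 17 in COP-like cells (1.80 CPM) and 7 in MALP-like cells (2.11 CPM). The noncoding genes of the domain are known to be read from the maternal allele, and Dlk1, Rtl1 and Dio3 from the paternal allele.

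**Figure D2:**
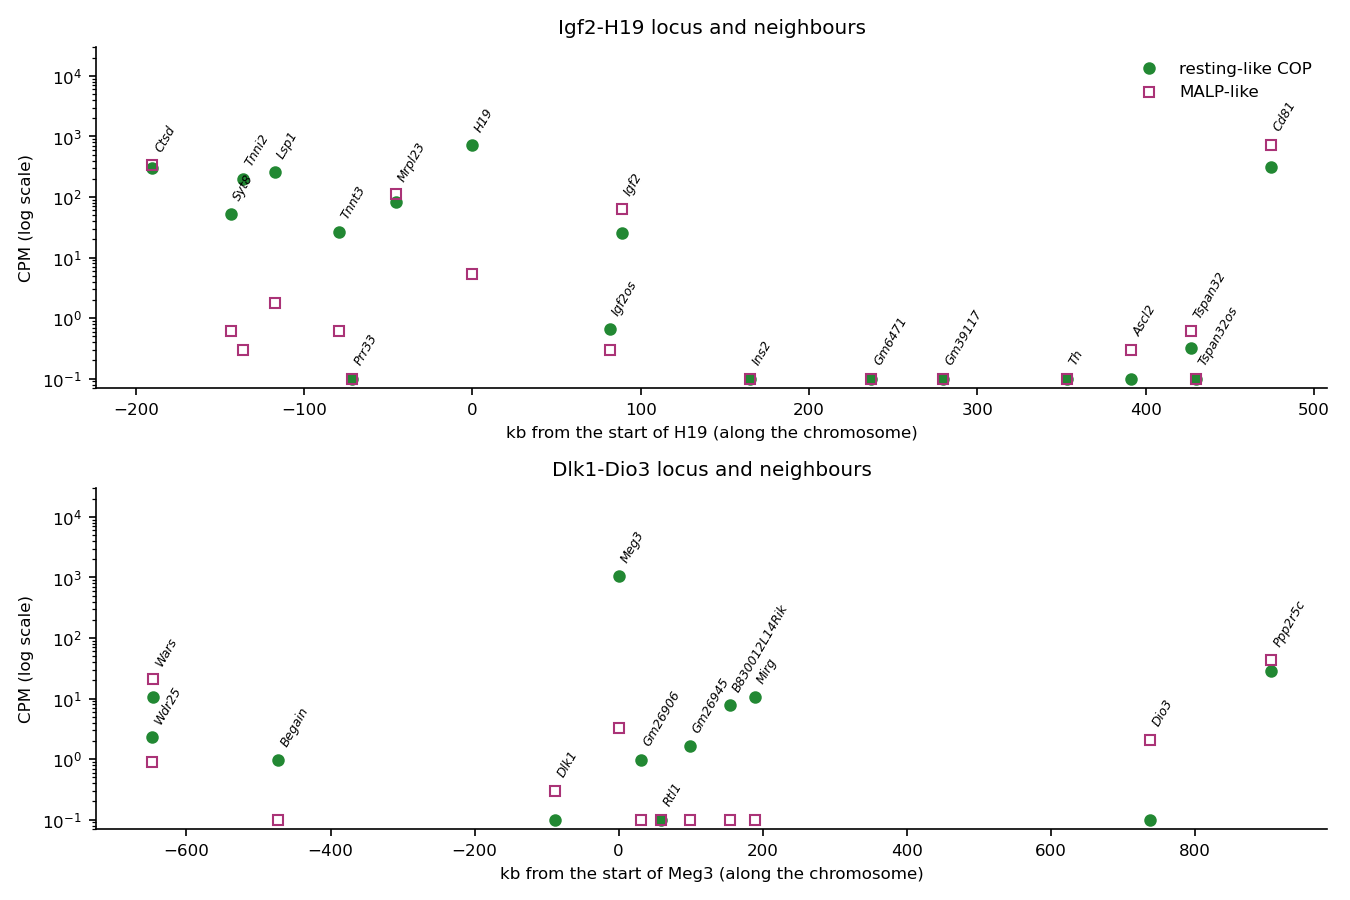
The Igf2-H19 and Dlk1-Dio3 domains, with each gene placed by its distance in kb from the start of H19 or Meg3 and its level (CPM, log axis; 0 UMIs drawn at 0.1) in resting-like COP and MALP-like cells of both libraries summed. H19 stands at 715 and 5.42 CPM and Igf2 at 25.1 and 62.3 in these classes. Meg3 stands at 1066 and 3.31 CPM, Dlk1 at 0 and 0.301, and Dio3 at 0 and 2.11.

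COP-like cells were then divided by a score. It was the mean log level of Sfrp5, Cpm and Hhip, taken here as markers of resting chondrocytes, minus that of Chad and Stc2. The last 2 were taken as markers of columnar ones. The study names Hhip as a target gene of Hh signals, and the part of this in the score was not tested. At the limits used, 26 and 91 cells were resting-like, 27 and 43 intermediate and 11 and 120 columnar-like, and 71 of 318 cells lay within 0.25 of a limit. The sub-classes are ranges of a score and not cell types. Meg3 and H19 followed the resting side. In the teriparatide library, Meg3 measured 1034 CPM (994 to 1075) in resting-like and 123 (112 to 135) in columnar-like cells, a log2 ratio of 3.07 (2.93 to 3.22), and in the vehicle library 1188 (1104 to 1276) and 231 (185 to 284), a ratio of 2.36 (2.04 to 2.70). H19 measured 651 and 127 CPM in the teriparatide library, a ratio of 2.35 (2.21 to 2.50), and 965 and 262 in the vehicle library, a ratio of 1.88 (1.57 to 2.20). Igf2 was higher in resting-like cells too, with 21.7 and 9.60 CPM in the teriparatide library (1.18, 0.54 to 1.82), while 38.0 and 29.2 in the vehicle library differed by less than the counting error (0.38, -0.70 to 1.56). However, 1 resting-like cell held 23 of the 53 Igf2 UMIs of the teriparatide library. Without the richest cell of each sub-class, Igf2 measured 12.4 and 7.09 CPM there. Mirg had 20 and 2 UMIs in the teriparatide and 13 and 1 in the vehicle library, with ratios of 3.98 (1.94 to 7.12) and 2.96 (0.22 to 8.36).

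Plagl1 showed the opposite order, with 103 and 241 CPM in resting-like and columnar-like cells of the teriparatide library (-1.23, -1.43 to -1.02) and 74.3 and 167 in the vehicle library (-1.17, -1.74 to -0.60). Cdkn1c differed less, by -0.26 and -0.80, and Grb10 by -0.11 and -0.41. The Cdkn1c order of the teriparatide library depended on cells with a UMI of Ihh, described below. Without them it measured 413 CPM in resting-like and 139 in columnar-like cells there, the opposite order. In the vehicle library it measured 204 and 394 without them. Peg3 was 0.50 higher on the log2 scale in the teriparatide library and not different in the vehicle library (0.00, -0.31 to 0.32). Over both libraries, 7 of the 9 members had at least 50 UMIs. H19, Meg3 and Igf2 were at least 2-fold higher in resting-like cells, where 6.03% of all 8421 genes were, and Plagl1 was at least 2-fold lower, where 4.13% were. Igf2 rested on 77 and 48 UMIs, with 23 of the 77 in 1 cell. The median log2 ratio was 0.39 for the members and 0.03 for all genes. Depth was not matched, at a median of 26164 UMIs in resting-like and 33406 in columnar-like cells. After thinning, Meg3 was seen in 76.9% and 76.7% of resting-like cells and in 45.5% and 19.3% of columnar-like cells of the vehicle and teriparatide libraries, respectively. Male cells made up 95.7% of the called resting-like cells. Female cells could be compared only in the teriparatide library, where 3 resting-like cells had 0 UMIs of H19 and Meg3 and 10 columnar-like cells had 63 and 81, opposite to the order over all cells. The vehicle library had 2 female resting-like cells and no female columnar-like cell.

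When the 318 cells were ranked by the same score and cut into 6 bins of 53 cells, the sums of both libraries rose toward the resting end for Meg3, with 109, 127, 288, 631, 937 and 1263 CPM. H19 went from 102 through 166, 217, 406 and 689 to 731 CPM. Plagl1 went down, from 254 through 234, 184, 116 and 107 to 87.9 CPM. The libraries were not evenly spread over the bins, since all 53 cells of bin 1 and 31 of bin 4 were of the teriparatide library. Within each library H19 kept its order over the bins, while Meg3 and Plagl1 did not at every step. Meg3 of the teriparatide library measured 109 and 103 CPM in bins 1 and 2, counted from the columnar end, and that of the vehicle library 315 and 227 in bins 2 and 3. Plagl1 measured 118 and 122 CPM in bins 4 and 5 of the teriparatide library, and 44.8 and 45.7 in bins 5 and 6 of the vehicle library. Cdkn1c had no such order, with its highest level, 622 CPM, in the second bin and its lowest, 225, in the third. Peg3 lay between 368 and 674 CPM and Grb10 between 152 and 338. The share of male cells among called cells ranged from 74.5% to 100% across the bins, lowest in the middle.

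**Figure D3:**
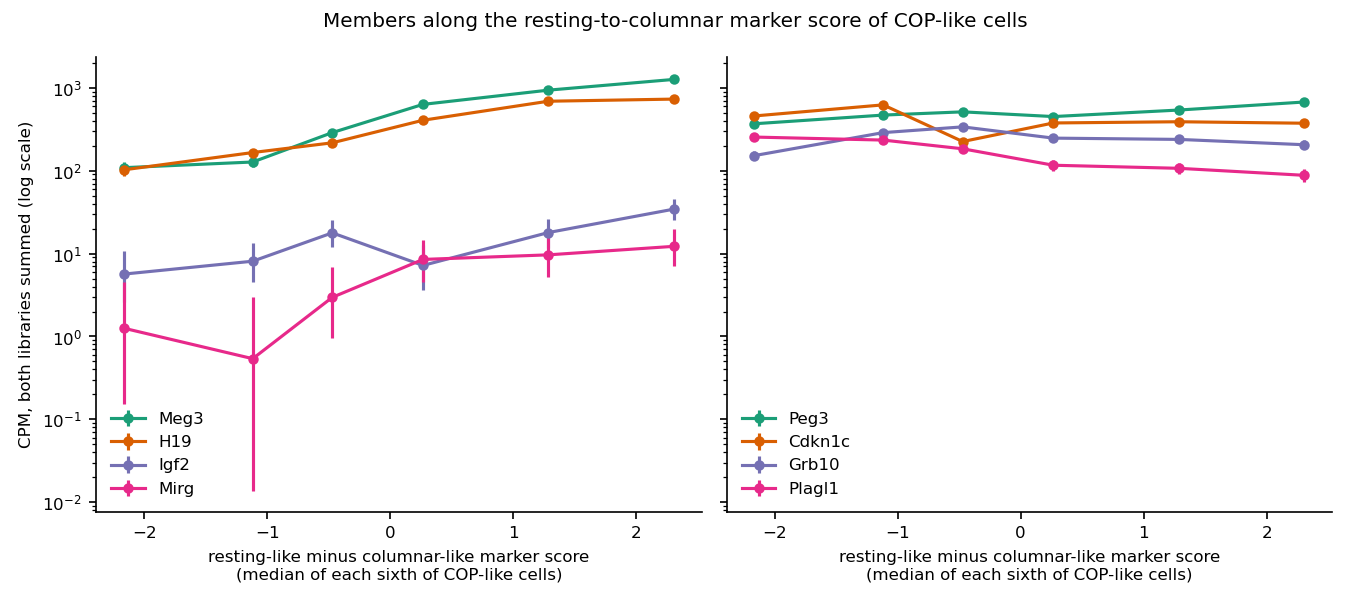
Levels of 8 members (CPM, log axis) in 6 bins of 53 COP-like cells each, placed by the median resting minus columnar marker score of the bin, both libraries summed, with exact 95% Poisson intervals. Meg3 climbs from 109 to 1263 CPM and H19 from 102 to 731, whereas Plagl1 descends from 254 to 87.9.

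Within COP-like cells the noncoding members were not evenly spread. In the teriparatide library, 17 of 254 cells held at least as many UMIs of H19 as the remaining cells together, against 26 for Meg3, 44 for Plagl1, 53 for Grb10 and 62 for Peg3. Cdkn1c was the most uneven of these, with 13 cells and up to 257 UMIs in a single cell. In the vehicle library the numbers, of 64 cells, were 9 for H19, 10 for Meg3, 11 for Plagl1, 14 for Grb10, 16 for Peg3 and 6 for Cdkn1c. Of the members named, Peg3 and Grb10 thus had the most such cells and Cdkn1c the fewest in both libraries. Igf2 and Mirg, with far fewer UMIs, had 5 and 7 such cells in the teriparatide library and 4 each in the vehicle library. In the 313 COP-like cells deep enough to be thinned to 3889 UMIs, Meg3 was seen in 60.2% of the 108 cells with H19 and in 40.5% of those without. Igf2 was seen in 10.2% of cells with H19 and in 1.95% of those without. Plagl1 was seen in 25.7% of the 148 cells with Meg3 and in 52.7% of those without. These shares describe sparse counts, and the overlap of H19 and Meg3 was seen in the teriparatide library (61.5% and 37.8%) and hardly in the vehicle library (56.7% and 54.5%).

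COP-like cells were also divided by the ligands of the growth plate feedback loop. Pthlh, which encodes PTHrP, the natural ligand of the receptor that teriparatide binds, marks resting chondrocytes, and Ihh, the Hh ligand that induces it, marks prehypertrophic ones. Both divisions were chosen after values had been seen. A UMI of Pthlh was present in 9 COP-like cells of the vehicle and 27 of the teriparatide library, and all 9 and 21 of the 27 were resting-like. In these cells Meg3 measured 1628 CPM against 489 in the others of the vehicle library, and 1824 against 356 in the teriparatide library, log2 ratios of 1.74 (1.56 to 1.91) and 2.36 (2.26 to 2.46). H19 measured 1532 against 378 and 578 against 297. Igf2 had 37 and 99 UMIs in all COP-like cells, with 23 of the 99 in 1 cell. It measured 58.4 against 14.8 and 53.9 against 8.93, close to its level in MALP-like cells. Cdkn1c was the reverse, with 87.7 against 369 and 91.7 against 466 CPM, ratios of -2.07 (-2.78 to -1.45) and -2.34 (-2.73 to -1.99). Plagl1 measured 71.0 against 124 and 55.3 against 194, and Peg3 380 against 386 and 721 against 502.

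Ihh was seen in 25 COP-like cells of the teriparatide library, of which 22 were columnar-like, and in 1 cell of the vehicle library. In the 25 cells, Cdkn1c reached 1594 CPM (1514 to 1677) against 271 (259 to 284) in the other 229 cells, a log2 ratio of 2.56 (2.46 to 2.66), and they held 44.9% of all Cdkn1c UMIs of COP-like cells. Meg3 and H19 were lower there, at 99.0 against 542 and 105 against 352 CPM. Plagl1 was at 266 against 170, and Peg3 and Grb10 were alike in both sets, at 521 and 522 and at 246 and 235 CPM, with ratios of -0.00 (-0.14 to 0.13) and 0.07 (-0.14 to 0.27). The cells with Ihh were deeper, at a median of 40559 UMIs against 29767. Their Cdkn1c UMIs lay mostly in few of them. Columnar-like cells of the teriparatide library held 1877 Cdkn1c UMIs, of which 54.8% were in 5 cells, with up to 257 in 1 cell. The columnar-like cells without Ihh held 420 of the 1877. The 1 vehicle cell with Ihh had 0 UMIs of Cdkn1c among 37125.

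**Figure D4:**
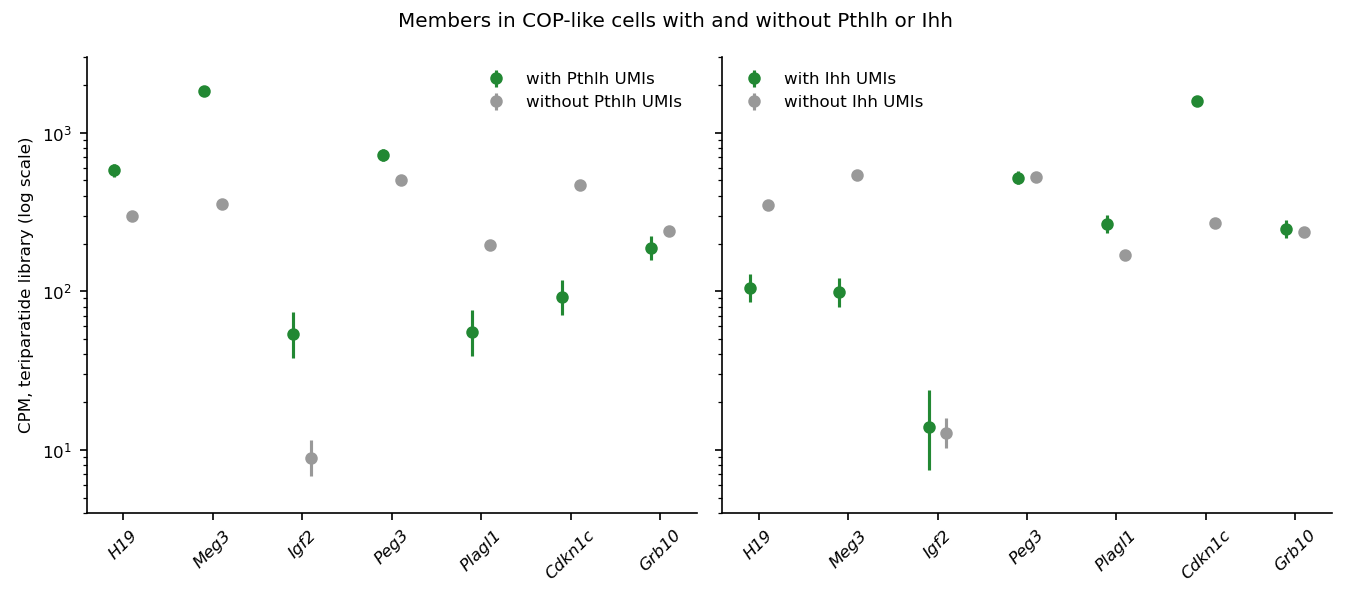
Levels of 7 members (CPM, log axis) in COP-like cells of the teriparatide library with and without a UMI of Pthlh and with and without a UMI of Ihh, with exact 95% Poisson intervals. Cdkn1c stands at 1594 CPM in cells with Ihh and at 91.7 in cells with Pthlh, and Meg3 stands at 99.0 and 1824 in the same sets.

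Whether the cell cycle inhibitor was low in dividing cells was the next question. Cells with at least 3 of 6 cycle markers were called cycling, 5 of vehicle and 18 of teriparatide mice, and 7 cells with 2 markers were left out. Cdkn1c measured 76.1 CPM in cycling against 358 in non-cycling cells of the vehicle library and 104 against 470 in the teriparatide library. The log2 ratios were -2.23 (-3.15 to -1.45) and -2.18 (-2.55 to -1.83). Meg3 was lower as well, by -3.25 (-4.17 to -2.47) and -2.03 (-2.36 to -1.72), and Peg3 by -0.42 and -0.98. All 13 Meg3 UMIs in cycling cells of the vehicle library lay in 1 of 5 cells, and in the teriparatide library the Meg3 ratio was -2.66 in male cells and -0.01 (-0.53 to 0.49) in female cells, of which 6 were cycling. Grb10 was higher, by 0.66 (0.28 to 1.02) and 0.55 (0.33 to 0.75), and H19 was within counting error, at 0.04 (-0.28 to 0.35) and -0.16 (-0.38 to 0.05). The H19 value joined unlike sexes: it was -0.54 and -0.68 in male cells and 2.49 and 2.02 in female cells, of which 1 and 6 were cycling. In the teriparatide library 2 of 7 members with enough UMIs were at least 2-fold lower, where 9.39% of all 8466 genes were, and in the vehicle library 2 of 6, where 13.9% of 4233 genes were. Of the 23 cycling cells, 14 were columnar-like, 8 intermediate and 1 resting-like, and the part of this in the low Meg3 was not tested. Without the cells with Ihh, the Cdkn1c ratio of the teriparatide library was -1.49.

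Of the other CDK inhibitors, Cdkn2c and Cdkn2d were higher in cycling cells of both libraries summed, at 155 against 49.1 and 112 against 37.9 CPM. Cdkn1a and Cdkn1b, the relatives of Cdkn1c, were not, at 116 against 159 and 32.7 against 33.8. In the vehicle library alone, with 5 cycling cells, none of the 3 other CDK inhibitors with enough UMIs was at least 2-fold higher. Cdkn1a was highest in osteocyte-like (722 CPM) and hypertrophic-like cells (513), against 156 in COP-like cells. Cdkn2a and Cdkn2b stayed under 10 CPM in all 6 classes.

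Between the libraries, none of the 8 members with enough UMIs passed 2-fold in COP-like cells, where 6.35% of all 9101 genes did. H19 was lower in the teriparatide library, at 322 against 532 CPM, a log2 ratio of -0.72 (-0.83 to -0.61). Meg3 differed by -0.39 (-0.49 to -0.30), Grb10 by -0.34 (-0.48 to -0.20), Igf2 by -0.67 (-1.23 to -0.08) and Mirg by -0.96 (-1.85 to -0.01). Plagl1 was higher, by 0.64 (0.43 to 0.86), as were Peg3, by 0.44 (0.32 to 0.56), and Cdkn1c, by 0.38 (0.26 to 0.51). The median was -0.37 for the members and -0.20 for all genes. With libraries scaled by the median ratio of all genes in place of their totals, H19 was at -0.52, Meg3 at -0.19, Grb10 at -0.14 and Plagl1 at 0.84, and no member turned. Among male cells alone, H19 was at -0.77 and Plagl1 at 0.65, whereas Igf2, with 3 UMIs in female vehicle cells, was at -0.95 in male and 1.23 in female cells. The direction of Cdkn1c depended on the cells with Ihh: without them it measured 271 CPM against 338, a ratio of -0.32 (-0.45 to -0.18).

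The libraries also differed in sub-classes, with columnar-like cells making up 11 of 64 and 120 of 254 cells, and the part of this in the differences was not tested. Within resting-like cells, H19 was at -0.57 (-0.70 to -0.43), Meg3 at -0.20 (-0.32 to -0.08), Peg3 at 0.83 (0.63 to 1.04) and Cdkn1c at 0.99 (0.73 to 1.27). None of 7 members passed 2-fold there, where 10.7% of all 5787 genes did. Within intermediate cells, H19 was within counting error, at -0.14 (-0.38 to 0.09), and Meg3 was at 0.45 (0.25 to 0.64), and without the richest cells they were at 0.02 and 0.59. For Cdkn1c in resting-like cells, 1 vehicle cell held 71 of 129 UMIs, and without the richest cell of each library the ratio was 1.92. Within columnar-like cells, 1 of 6 members, H19 at -1.04 (-1.36 to -0.72), passed 2-fold, where 14.4% of all 6639 genes did. H19 and Meg3 rested on few of the 11 vehicle cells: without the richest cell of each library, H19 was at -0.48 and Meg3 moved from -0.91 to 0.13. Cdkn1c in columnar-like cells was at 0.46 with and at -1.503 (139 against 394 CPM) without the cells with Ihh. Leaving out the richest cell of each library as well, it was at -0.88 (130 against 240 CPM), under 2-fold.

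In MALP-like cells, 2 of 5 members passed 2-fold, where 4.13% of all 7451 genes did. Plagl1 measured 216 against 104 CPM (1.06, 0.79 to 1.32) and was seen in 71 of 95 teriparatide and 92 of 184 vehicle cells, and Peg3 measured 28.4 against 12.7 (1.16, 0.40 to 1.95). The sexes were unequal in this class, with 48.0% of called vehicle cells and 90.0% of called teriparatide cells male. Among male cells, Plagl1 was at 0.94 (0.60 to 1.28), under 2-fold. Peg3 was at 2.16 (0.97 to 3.58) among male cells, on 34 and 7 UMIs, under the minimum of 50 for a call. Igf2 (-0.06), Cdkn1c (-0.02) and Grb10 (-0.11) differed by less than the counting error, although Igf2 was at -0.67 (-1.20 to -0.15) among male cells. In preOB-like cells, 2 of 5 members passed 2-fold, where 8.17% of all 3341 genes did. Igf2 was at 1.97 (0.82 to 3.35) on 49 and 7 UMIs, and Cdkn1c measured 38.9 against 92.8 CPM (-1.26, -1.99 to -0.54). Of the called preOB-like cells, 40.0% of vehicle and 86.1% of teriparatide cells were male. Among male cells Igf2 was at 0.02 (-2.25 to 3.27) and Cdkn1c at -0.56 (-1.85 to 0.92). Both were under 2-fold, on fewer than 50 UMIs each. Of the 49 Igf2 UMIs of the teriparatide library, 40 lay in 5 female cells, and Cdkn1c had 2 against 26 UMIs in female cells. In OB-like cells, none of 4 did, where 4.77% of 6310 genes did, with Cdkn1c just inside the limit at -0.99 (-1.79 to -0.22). In hypertrophic-like cells, 2 of 4 members passed 2-fold, where 23.6% of 1999 genes did. These were Plagl1, at 2.09 (0.70 to 3.99) on 4 vehicle UMIs, and Cdkn1c, at -1.003 (-1.34 to -0.65), which was at -0.27 without the richest cell of each library. No member had enough UMIs in osteocyte-like cells.

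**Figure D5:**
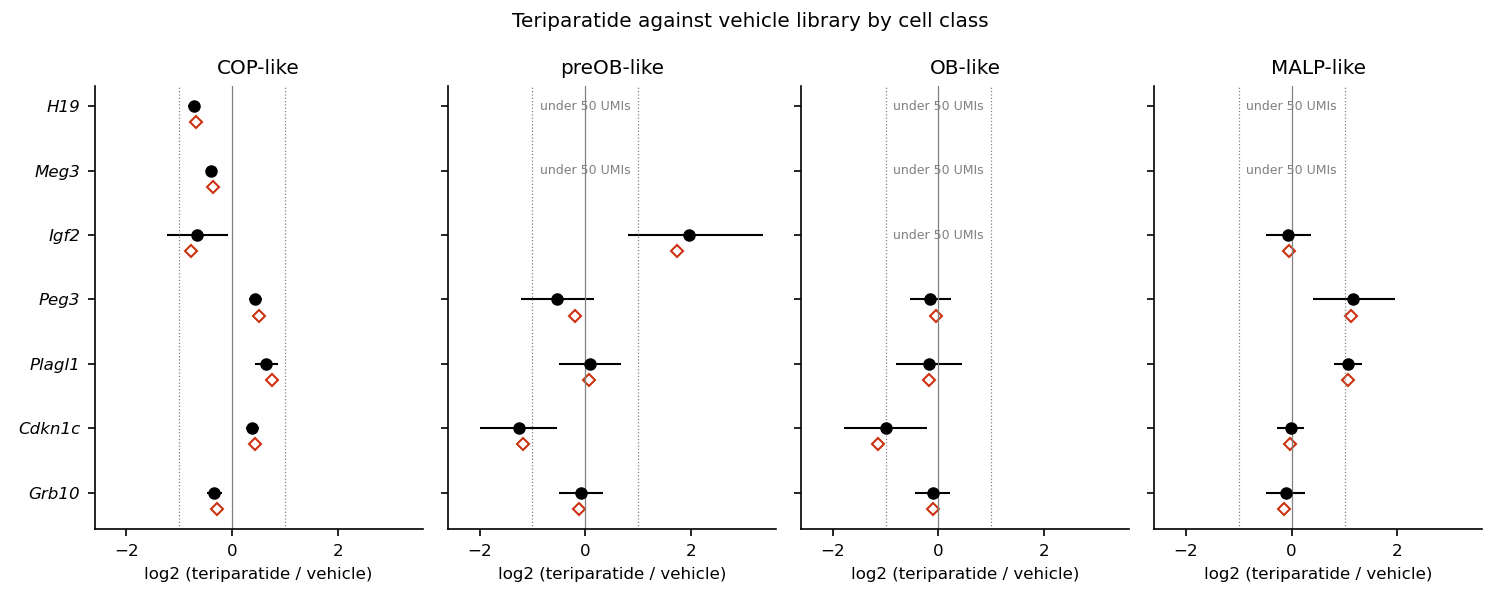
Log2 ratio of teriparatide to vehicle CPM for 7 members in COP-like, preOB-like, OB-like and MALP-like cells, where they had at least 50 UMIs. Black points are ratios of summed UMIs with exact conditional binomial intervals, red open diamonds leave out the cell with the most UMIs of the member in each library, and dotted lines mark 2-fold. In COP-like cells all points lie between the lines, from -0.72 for H19 to 0.64 for Plagl1, and in MALP-like cells Plagl1 and Peg3 lie at 1.06 and 1.16, past the line.

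Of the 51 other imprinted genes measured, 34 had enough UMIs to set COP-like against MALP-like cells. In COP-like cells, 12 were at least 2-fold higher and 10 lower, beside the 11.7% and 27.5% of all genes given above. Zim1 and Usp29, which lie in the imprinted domain of Peg3, measured 28.7 and 6.26 CPM in COP-like cells and had 1 UMI each in MALP-like cells, with log2 ratios of 6.57 (4.08 to 11.88) and 4.38 (1.84 to 9.71). Phlda2, a placental growth restrainer in the domain of Cdkn1c, measured 10.7 CPM against 1 UMI (5.15, 2.64 to 10.47), and the amino acid transporter Slc38a4 measured 22.3 against 0.602 (5.21). Nnat, with 1 UMI in COP-like cells, and Pon2, at 29.8 against 240 CPM, were lower, by -7.34 (-12.67 to -4.80) and -3.01. Kcnq1ot1, the noncoding RNA of the Cdkn1c domain, named after its values were seen, measured 265 and 99.3 CPM.

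Between resting-like and columnar-like cells, 4 of 27 other imprinted genes were at least 2-fold higher and 3 lower. Of all 8421 genes, 6.03% were higher and 4.13% lower. Mest, a paternally expressed gene linked to growth, went with the columnar side like Plagl1, at 3.90 against 65.2 CPM (-4.06), followed by Phlda2 (1.95 against 14.9) and Slc38a4 (9.76 against 31.2). Zdbf2 (15.9 against 4.25), Snrpn (15.0 against 4.73), Peg10 (13.01 against 5.67) went with the resting side, as did Zim1 (40.7 against 20.1), named after its values were seen. Between the libraries in COP-like cells, 2 of 31 passed 2-fold, close to the share of all 9101 genes that did, 6.35%. These were Mest, at 38.8 against 110 CPM (-1.502, -1.77 to -1.23), and Ddc, at 7.996 against 3.35 (1.26, 0.05 to 2.76).

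In a list of 16 genes of the IGF axis, the ligand Igf1 was higher in resting-like than columnar-like cells, as was Igf2, at 785 against 15.6 CPM (5.65), together with Igfbp7 at 1505 against 572 (1.40). MALP-like cells, where Igf2 was highest with both libraries summed, had 306 CPM of Igf1 against 277 in COP-like cells. They also held most of the binding proteins. Igfbp3, Igfbp4 and Igfbp5 measured 402, 7052 and 5574 CPM there and 0.106, 12.5 and 6.90 in COP-like cells. Irs2 went the other way, at 88.4 CPM in COP-like and 30.7 in MALP-like cells. Between the libraries, Igf1 measured 194 against 633 CPM in COP-like cells (-1.71) and 547 against 1702 within resting-like cells (-1.64). This was the same direction as Igf2 and H19. In MALP-like cells Igf1r passed 2-fold, at 113 against 49.2 CPM (1.20, 0.82 to 1.58), in a class where the sexes were unequal.

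Over 18 sums of class by library, the genes whose log2(CPM + 1) followed the mean of 8 members most closely among 12338 genes were Itm2a (Pearson r 0.97), Spats2l (0.97), Fgfr3 (0.96), Cyp2j6 (0.96) and Matn2 (0.96). Itm2a measured 787 CPM in resting-like and 508 in columnar-like COP cells, 141 in MALP-like and 26.3 in OB-like cells. The genes nearest to H19 were Cilp2 (0.94), Egr4 (0.93), Wasf3 (0.93), Clmn (0.93) and Pamr1 (0.93), and those nearest to Meg3 were Pde10a (0.91), Sdr39u1 (0.90), Arhgef15 (0.89), Fam180a (0.88) and Edil3 (0.88). H19 and Meg3 correlated at 0.75 with each other, and H19 and Igf2 at 0.47. The sums share libraries and depth, so that the values are a description.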

How the data were processed

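Single-cell RNA was measured in 1 library per group, made with a 10x 3' kit from sorted cells. The authors deposited, per library, a matrix of UMI counts per gene and barcode, already restricted to barcodes taken as cells. Per the submitters' notes the counts came from Cell Ranger 2.1.0 on mm10, whereas the header of the deposited matrix names version 3.1.0. Reads of shared 3' ends and overlapping genes were assigned by that counting and cannot be reassigned here. Barcodes with 200 to 6000 genes and at most 10% mitochondrial UMIs were kept, the limits of the study's methods.

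Cells were assigned one at a time to the class with the highest mean log level of its markers, at a score of at least 0.25 with 2 or more markers seen, and COP-like cells to sub-classes at a score difference of 0.5. The rule named all members, the CDK inhibitors, at most 6 genes per contrast of the other imprinted genes and the IGF axis that differed at least 2-fold, and the 5 genes most like the members. The members and lists were chosen with earlier results of these data known. UMIs were summed per class and library. Ratios were called past 2-fold among genes with 50 or more UMIs over both sides. With 1 library per group no test was run. A count of 0 was read as allowing 3 counts. Intervals cover counting error only, and Poisson, binomial and conditional binomial intervals are exact (Clopper-Pearson) at 95%. The interval script was tested on simulated data.

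Scrublet marked 4 of 549 and 2 of 1217 cells as doublets and none of the COP-like cells. So few calls (0.729% and 0.164%) may mean that the caller missed doublets, and none were removed in the main values. Shares of cells were also computed after thinning each cell to 3889 UMIs, leaving out shallower cells (1 of 64 and 4 of 254 COP-like cells). Alternatives were a limit of 20% mitochondrial UMIs, a stricter gate, clusters without the members and markers, median-ratio scaling, totals without mitochondrial and ribosomal protein genes, the mean of the cells' CPM, thinning, no filter on low counts, doublets left out, and male or female cells alone. Leaving out the richest cell and leaving out the cells with Ihh were chosen after seeing the data. Python 3.11.15, numpy 2.4.6, scipy 1.17.1, pandas 2.3.3 and scanpy 1.11.5 were used.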

Additional observations from a re-analysis of the deposited data

Results flagged for a closer look

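Several members had opposite signs of the teriparatide to vehicle ratio in different classes, with intervals on both sides that left out 0. The differences between classes were not tested. Igf2 was at 1.97 on the log2 scale in preOB-like cells and at -0.67 in COP-like cells. Without the richest cell of each library the preOB-like value was 1.74 and the COP-like value -0.77, and among male cells they were 0.02 and -0.95.

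Cdkn1c was at 0.38 in COP-like cells, and at -1.003 in hypertrophic-like, -1.26 in preOB-like and -0.99 in OB-like cells. Among male cells Cdkn1c was at 0.43 in COP-like and -1.52 in hypertrophic-like cells. It was at -0.56 (-1.85 to 0.92) in male preOB-like and -0.67 (-1.88 to 0.66) in male OB-like cells, with intervals that held 0. Without the COP-like cells with Ihh its COP-like value was -0.32, on the same side as the other classes, and without the richest cells the hypertrophic-like value was -0.27. Between sub-classes of COP-like cells, Cdkn1c was at 0.99 in resting-like and 0.46 in columnar-like against -0.40 in intermediate cells. Without the cells with Ihh, the resting-like value was 1.02 and the columnar-like value -1.503. The columnar-like value was -0.88 when the richest cell of each library was left out as well.

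Meg3 was at 0.45 in intermediate cells, and at -0.20 in resting-like and -0.91 in columnar-like cells. Without the richest cell of each library these were 0.59, -0.16 and 0.13.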

How the results depend on the processing

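Of 432 recomputed levels, 326 stayed within their main interval. Of 308 recomputed teriparatide to vehicle ratios, 265 did and 28 turned sign. The 5 resting-like to columnar-like ratios were of H19, Meg3, Plagl1, Cdkn1c and Peg3. With clusters 0 of 5 stayed and 0 turned, and among female cells 0 stayed and 2 turned. With the stricter gate, thinning, male cells or without the cells with Ihh, 2 to 4 stayed. All 5 stayed under the other alternatives recomputed. The number of members highest in COP-like cells, 6, ranged from 5 to 8. The 3 members at least 2-fold higher in resting-like cells became 0 among female cells, with Meg3 at -1.32, and with clusters the H19 ratio was 1.12 in place of 2.36. The Cdkn1c ratio of resting-like to columnar-like cells, at -0.38, ranged from -1.15 to 1.16. Past 2-fold between the libraries, the 0 members in COP-like cells became 1 with the stricter gate (Igf2, -1.37) and 1 with the mean of the cells' CPM (Mirg, -1.59). The 2 members in preOB-like cells became 0 after thinning, 0 among male and 0 among female cells, 4 with no filter on low counts and 1 without the richest cells. The 0 in OB-like cells became 1 with clusters, 1 among female cells and 1 without the richest cells. The 2 in MALP-like cells became 1 at 20% mitochondrial UMIs, 1 after thinning, and 0 among male or female cells. Among male MALP-like cells Peg3 was at 2.16 but had too few UMIs to be called. The Cdkn1c ratio of cycling cells was negative under all alternatives run. In the vehicle library, at -2.23, it became -4.19 among female cells and -3.41 without the richest cells. In the teriparatide library, at -2.18, it became -1.31 after thinning, -2.70 with the stricter gate and -1.49 without the cells with Ihh. In each case the cause was not tested, and fewer UMIs pass the minimum when cells are left out. No paired analysis was possible because each group was 1 library. Mirg, Dlk1 and, outside COP-like and MALP-like cells, Igf2 had few UMIs, and the part of depth in this was not tested.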
